A study of Mus musculus with 12 samples.

Results

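The transcripts described here are 10 genes of the NF-κB system in peritoneal macrophages (PMφs). They are the 5 Rel family subunits (Nfkb1, Nfkb2, Rel, Rela and Relb), the cytoplasmic inhibitors Nfkbia and Nfkbie, the nuclear IκB-like regulators Nfkbiz and Bcl3, and Tnfaip3, a ubiquitin-editing feedback inhibitor. They were chosen by name, and all 10 were found among 43278 gene symbols and passed the filter on low values in every comparison. PMφs came from wild-type C57BL/6J mice of both sexes, 8 to 12 weeks old, 4 days after intraperitoneal thioglycolate. Cells of 1 or 2 litters (up to 10 mice) were pooled before being divided, so a library stands for a pool of animals. Poly(A) RNA was sequenced from 3 libraries of each of 4 groups. Control PMφs received neither agent. oxLDL PMφs were cultured for 24 h with 100 µg/ml human medium oxidized low-density lipoprotein, LPS PMφs received 10 ng/ml ultrapure lipopolysaccharide, and oxLDL+LPS PMφs received oxLDL and then LPS. How long LPS was applied is not given in the sources used here for these libraries. Values are normalized counts, the reads per gene scaled by the authors with 1 factor per library.

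Rel family proteins work as dimers that bind κB sites in DNA. In resting cells most dimers are held in the cytoplasm by IκB proteins. Toll-like receptor 4, which LPS engages, activates the IκB kinase complex, IκB is degraded and the dimers enter the nucleus. The genes for IκBα (Nfkbia), IκBε (Nfkbie) and A20 (Tnfaip3) are themselves induced by NF-κB and turn the signal down, while the Nfkb1, Nfkb2, Rel and Relb genes are known to be induced as well. Macrophages are a standard cell type for this circuit, because inflammatory cytokine genes depend on it.

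Promoter sequences are shown because the 10 transcripts rose together with LPS, as given further on. RefSeq start sites on GRCm38.p6 were matched for 7 of the 10 members. Each window below covers the 130 bases before the annotated start site and the first 20 bases after it, in the sense direction, and capitals mark matches to the κB consensus of 10 bases, searched on both strands. Overlapping matches are joined in 1 run of capitals. For Nfkb2 and Tnfaip3, which have further start sites, the site listed first is shown.
Nfkb2, chr19:46304607-46304756, plus strand: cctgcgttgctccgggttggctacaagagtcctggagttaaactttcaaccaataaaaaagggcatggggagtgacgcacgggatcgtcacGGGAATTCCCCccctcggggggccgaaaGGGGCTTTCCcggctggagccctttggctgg
Rel, chr11:23770950-23771099, minus strand: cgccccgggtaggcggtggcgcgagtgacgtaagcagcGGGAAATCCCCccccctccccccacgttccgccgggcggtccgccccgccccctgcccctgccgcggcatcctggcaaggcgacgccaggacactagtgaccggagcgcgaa
Rela, chr19:5637411-5637560, plus strand: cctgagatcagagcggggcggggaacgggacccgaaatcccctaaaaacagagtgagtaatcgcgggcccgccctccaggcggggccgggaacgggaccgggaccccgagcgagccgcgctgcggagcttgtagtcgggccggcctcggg
Nfkbia, chr12:55492628-55492777, minus strand: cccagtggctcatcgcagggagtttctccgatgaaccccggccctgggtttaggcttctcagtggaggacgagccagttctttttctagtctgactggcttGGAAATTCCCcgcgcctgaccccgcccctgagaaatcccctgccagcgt
Nfkbie, chr17:45555570-45555719, plus strand: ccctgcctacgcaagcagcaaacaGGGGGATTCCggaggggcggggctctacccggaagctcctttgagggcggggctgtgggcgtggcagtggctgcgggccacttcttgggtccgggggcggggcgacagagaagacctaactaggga
Bcl3, chr7:19822736-19822885, minus strand: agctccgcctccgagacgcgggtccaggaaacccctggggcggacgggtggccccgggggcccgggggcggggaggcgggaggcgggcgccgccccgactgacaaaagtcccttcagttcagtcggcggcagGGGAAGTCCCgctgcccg
Tnfaip3, chr10:19015391-19015540, minus strand: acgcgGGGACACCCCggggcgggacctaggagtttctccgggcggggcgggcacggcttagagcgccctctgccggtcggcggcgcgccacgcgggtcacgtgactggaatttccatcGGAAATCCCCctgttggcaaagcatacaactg
Of these 7 genes, 6 held the consensus in the full window of 300 bases (250 before and 50 after the start), and Rela did not. In the same windows of all 27025 genes with a RefSeq promoter, 5.14% held it, as did 17.5% of 40 other pathway genes and 31.8% of 22 textbook NF-κB target genes. A match is a description of letters and was not tested for binding.

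Every library contained between 16726105 and 26177459 reads, as implied by the spacing of its values. Macrophage identity was checked with 9 markers, all of them detected, whose values summed to between 235071 and 368325 per library, with Lyz2 the most abundant. B cell, T cell, neutrophil, eosinophil and mast cell markers summed to at most 243 in any library for each list. That maximum came mainly from Lck. Ly6g, Prg2 and Ear6 were at 0 in all libraries, and every other listed marker was detected in at least 1 library. B cell markers summed to 39 to 86 per library and mast cell markers to 31 to 109, so these lists were low but not absent. Mesothelial and fibroblast markers were more abundant, from 4428 to 27494, and in every group were highest in replicate 1 and lowest in replicate 3. The pools differed in sex. Xist was at 1 and 2 in control and oxLDL replicate 1 but at 6331 and 3812 in LPS and oxLDL+LPS replicate 1, so replicate 1 was not the same pool with and without LPS. In replicate 2 the Y-linked Ddx3y was at 0 to 2. Libraries of the same number nevertheless deviated together within each LPS state, with correlations across genes of 0.69 to 0.73 between control and oxLDL and 0.66 to 0.73 between LPS and oxLDL+LPS. Differences with oxLDL are therefore also given with the replicate number as a block, which compares libraries of the same number.

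Resting PMφs expressed all 10 members. Per kilobase of annotated exon, Rela, which encodes the p65 subunit, had the highest level in control PMφs, 573 ± 19.4 (SD, n = 3), followed by Nfkbia at 343 ± 10.5, with no overlap between their libraries. Bcl3 (188 ± 7.84) and Nfkb2 (176 ± 18.6) overlapped each other, as did Nfkb1 (128 ± 7.73) and Tnfaip3 (124 ± 9.35). Relb stood at 90.6 ± 7.79 per kb, apart from its neighbours. The lowest levels per kb were those of Nfkbie (37.7 ± 8.52), Rel (34.9 ± 5.68) and Nfkbiz (30.4 ± 5.80), each overlapping the next. Levels per kb depend on the exon length, which joins all annotated exons of a gene. Without division by length, the mean normalized count in control was 1762 for Rela and 1550 for Nfkb1. In bulk RNA, fewer expressing cells and less RNA per cell cannot be told apart.

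**Figure D1:**
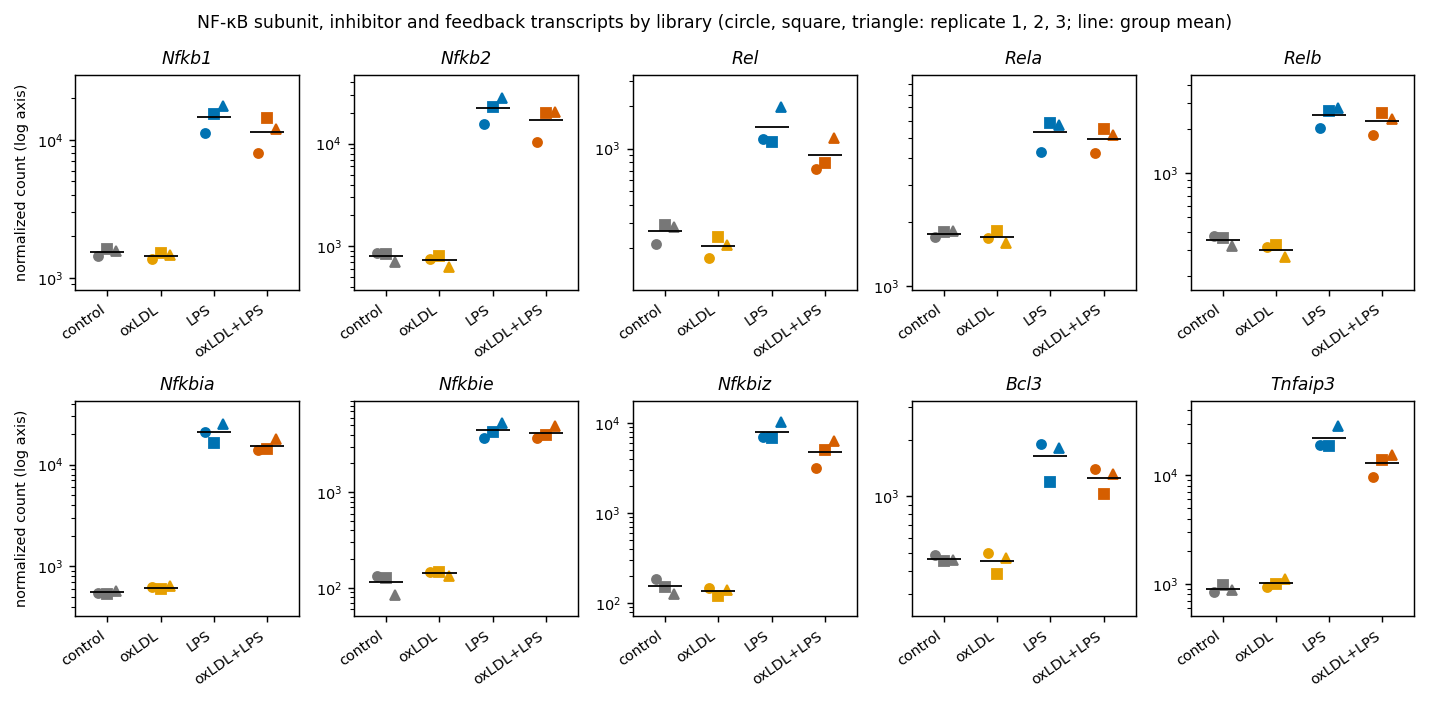
Normalized count (log axis) of each of the 10 transcripts in the 12 libraries; symbols are replicate numbers and black lines are group means. In every panel all 6 libraries with LPS lie above all 6 without it.

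LPS raised all 10 transcripts in PMφs without oxLDL. The rise was largest for Nfkbiz (51.7-fold), Nfkbie (38.5-fold) and Nfkbia (37.0-fold) and smallest for Rela (2.98-fold). All 10 were called higher by limma at an adjusted p under 0.1, where 31.4% of 13023 genes tested were called higher. Their median log2 fold change was 3.90, and that of all genes tested was -9.665e-04.

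Among the subunits, Nfkb2, the precursor of p52 in the non-canonical pathway, rose most. Its normalized count was 857, 852 and 707 in control and 15638, 22715 and 27671 in LPS libraries. This is a log2 fold change of 4.74 ± 0.20 (SE, limma adjusted p = 1.295e-06). Nfkb1, the precursor of p50, went from 1447, 1629 and 1573 to 11275, 15394 and 17480. Its log2 fold change was 3.22 ± 0.16 (limma adjusted p = 2.888e-06). Relb, the usual partner of p52, was at 376, 362 and 318 without and 2015, 2647 and 2751 with LPS. It rose by 2.80 ± 0.14 on the log2 scale (limma adjusted p = 2.888e-06). Rel, which encodes c-Rel, was at 212, 290 and 280 in control and 1177, 1117 and 1960 in LPS libraries, a log2 fold change of 2.40 ± 0.23 (limma adjusted p = 8.442e-05). Rela was at 1694, 1785 and 1806 in control and 4300, 5853 and 5753 in LPS libraries. Its log2 fold change of 1.58 ± 0.13 was the smallest of the members (limma adjusted p = 3.827e-05). In none of the 5 subunits did control and LPS libraries overlap.

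Of the inhibitors and regulators, all but Bcl3 rose at least 24.0-fold. Nfkbia, which encodes the IκB that is degraded and resynthesized in each round of activation, went from 548, 538 and 571 in control to 21097, 16242 and 25043 in LPS libraries. The log2 fold change was 5.21 ± 0.15 (limma adjusted p = 2.949e-07). Nfkbie was at 133, 126 and 85 in control and 3711, 4244 and 5306 in LPS libraries, a log2 fold change of 5.27 ± 0.20 (limma adjusted p = 7.328e-07). Nfkbiz, a nuclear co-regulator of secondary response genes such as Il6, was at 183, 150 and 125 before and 6940, 6741 and 10334 after LPS. Its log2 fold change of 5.69 ± 0.20 ranked 143rd of 13023 genes (limma adjusted p = 5.654e-07). Bcl3, the nuclear partner of p50 and p52 dimers, rose far less, from 488, 453 and 456 to 1897, 1192 and 1810. This is 1.78 ± 0.18 on the log2 scale (limma adjusted p = 9.737e-05). Tnfaip3 went from 843, 974 and 880 to 18958, 18506 and 28578, a log2 fold change of 4.59 ± 0.17 (limma adjusted p = 7.070e-07). Thus each of the 5 inhibitors and regulators was separated from control in all libraries, and Bcl3 alone among them rose less than 4-fold.

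PMφs loaded with oxLDL also raised all 10 transcripts when given LPS, against oxLDL alone. Log2 fold changes ran from 1.46 ± 0.15 for Bcl3 to 5.09 ± 0.24 for Nfkbiz, with adjusted p from 3.186e-07 for Nfkbia to 2.146e-04 for Rel (limma). In this comparison 28.2% of 12900 genes were called higher. The fold increases were 2.91 for Rela, 4.29 for Rel, 7.37 for Relb, 7.68 for Nfkb1 and 22.2 for Nfkb2. Those of the inhibitors and regulators were 24.9 for Nfkbia, 28.9 for Nfkbie, 34.2 for Nfkbiz, 2.75 for Bcl3 and 12.5 for Tnfaip3. Tnfaip3 was therefore at 1251% of its level with oxLDL alone, whereas LPS without oxLDL brought it to 2400% of control. Whether the 2 responses differed was tested as the interaction, given below.

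**Figure D2:**
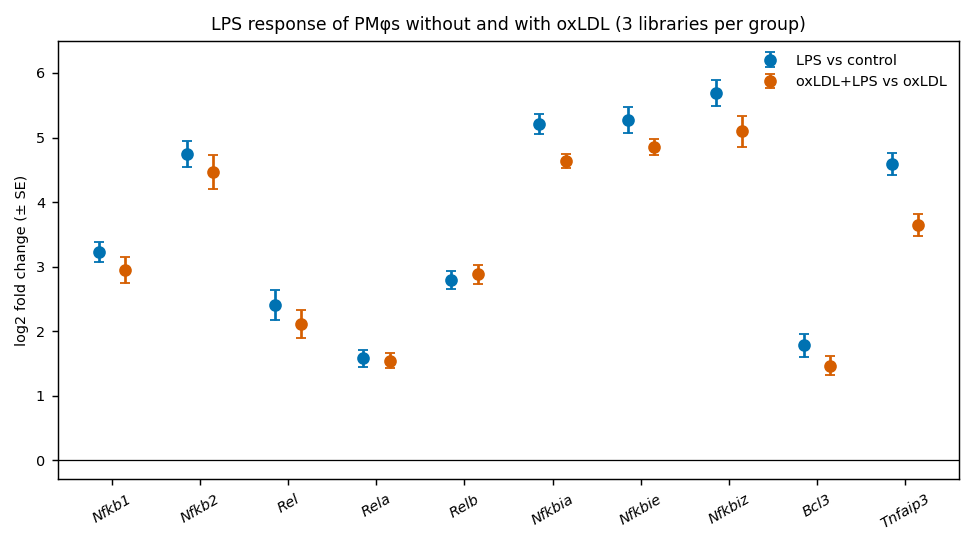
Log2 fold change with LPS (± SE, limma, 3 libraries per group) in PMφs without oxLDL (blue) and with oxLDL (orange). All 20 values are above 1.4, and the 2 values differ most for Tnfaip3 (4.59 and 3.65).

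The size of these LPS responses depends on scaling. Normalized counts summed to more with LPS (22071853 to 26384551 per library) than without (17152972 to 17709731). After rescaling every library to the same total, the median log2 fold change of all genes was -0.48 without oxLDL and -0.41 with it. Each member remained called higher, the least being Rela at 1.09 without oxLDL and Bcl3 at 1.07 with it. Of all genes tested, 16.7% were called higher without oxLDL and 15.8% with it after rescaling. Without replicate 1, whose libraries differed in sex between LPS states, all 10 were again called higher in both comparisons. Their median log2 fold change was then 3.99 without oxLDL and 3.46 with it. In these 2 fits 28.1% and 23.7% of all genes tested were called higher.

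With LPS the mix of subunit transcripts changed. Of the summed level per kb of the 5 subunits, Rela made up 57.2% ± 1.81 (SD, n = 3) in control and 58.9% ± 0.383 in oxLDL PMφs, but 20.4% ± 1.98 in LPS and 23.8% ± 3.83 in oxLDL+LPS PMφs. Nfkb2 moved the other way, from 17.5% ± 1.78 and 17.0% ± 1.12 to 55.6% ± 2.68 and 52.2% ± 5.21. The share of Nfkb1 stayed between 12.2% and 14.9% in all 12 libraries, and Relb between 6.86% and 9.84%. Rel was the smallest part, 3.48% ± 0.509 in control and 2.22% ± 0.481 in LPS PMφs. These shares are set by the rises given above and were not tested separately. Shares do not depend on the scaling of a library, but they do depend on annotated exon length, which for Nfkb1 (12061 bases) was nearly 4 times that of Rela (3072 bases).

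**Figure D3:**
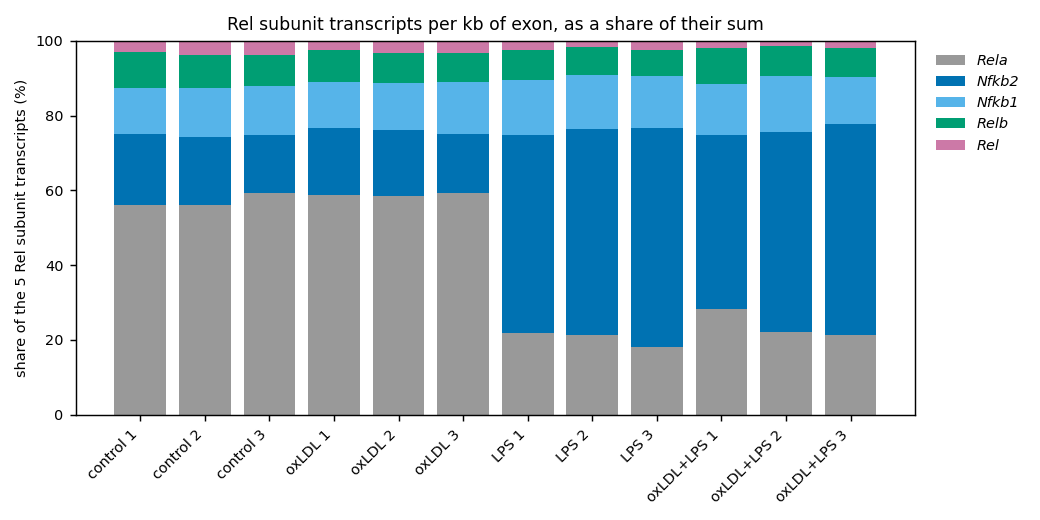
Share (%) of each Rel family subunit in the summed transcript level per kb of exon, 1 bar per library. Rela fills 56.1% to 59.3% of the bars without LPS and 18.1% to 28.2% of those with it, where Nfkb2 is the largest part.

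Inhibitors and subunits also changed their order in level per kb, which depends on annotated exon length. With LPS, Nfkbia had the highest level per kb of the 10, 12916 ± 2738 (SD, n = 3), above Nfkb2 (4801 ± 1319) in every library. Tnfaip3 (3047 ± 787) overlapped Nfkb2 and lay above Rela (1726 ± 283), which overlapped Nfkbiz (1595 ± 402). Nfkbie (1452 ± 267) overlapped both Nfkbiz and Nfkb1 (1220 ± 262). Bcl3 (660 ± 155) and Relb (636 ± 103) overlapped, and Rel (190 ± 63.0) was below every other member. Within a library, the ratio of Nfkbia to Rela per kb was 0.617, 0.575 and 0.603 in control and 9.36, 5.29 and 8.31 in LPS PMφs. With oxLDL+LPS it was 6.28, 4.96 and 6.68.

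With oxLDL alone the 10 transcripts differed little from control. None was called by limma without the replicate block, where 0 of 12751 genes (0%) were called and 381 had an unadjusted p under 0.05, none of them a member. Most differences were small but went the same way in each replicate number. Nfkb1, Nfkb2, Rel and Relb were lower with oxLDL in all 3 numbers, where 19.4% of genes tested were. Nfkbia, Nfkbie and Tnfaip3 were higher in all 3, where 17.5% of genes were. Rela, Nfkbiz and Bcl3 went both ways.

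Rel had the largest decrease among the members. It was at 168, 239 and 210 with oxLDL against 212, 290 and 280 in control, and the groups overlapped while each oxLDL library was below its partner. The log2 fold change was -0.34. With the replicate block its SE was 0.082 and Rel was the only member called (limma adjusted p = 0.0572), where 2.92% of genes were called lower and 1.80% higher. This call was lost when number 1 or number 2 was left out of the blocked fit, where 1.00% and 0.631% of genes were called lower. Relb, at 315, 322 and 268 against 376, 362 and 318 in control, was lower by 0.22 on the log2 scale and was not called (limma adjusted p = 0.134 with the block).

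The inhibitors stood on the other side. Nfkbia was at 617, 591 and 631 with oxLDL and at 548, 538 and 571 in control, 111% of control. Nfkbie was at 146, 147 and 135 against 133, 126 and 85, which is 126% of control. In both genes every oxLDL library was above every control library, which held for 3.79% of genes tested. No member had every oxLDL library below every control library, an order found in 3.91% of genes. Tnfaip3 was at 927, 1005 and 1115 against 843, 974 and 880, with overlap. None of the increases was called, with limma adjusted p of 0.205, 0.210 and 0.179 for Nfkbia, Nfkbie and Tnfaip3 under the replicate block.

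In LPS-treated PMφs, oxLDL accumulation came with lower levels of NF-κB transcripts. All 10 members were lower with oxLDL+LPS than with LPS in all 3 replicate numbers, as were 24.4% of 12786 genes tested, although rescaling to the same total turned Nfkbie (0.01 on the log2 scale) and quantile normalization turned Nfkbie (0.03) and Rela (0.02). Tnfaip3 was at 58.8% of its level with LPS alone, Nfkbiz to 59.0% and Rel to 64.0%, the strongest decreases in the set. Nfkbia, Nfkb2, Nfkb1 and Bcl3 were at 74.6% to 77.2%, and Relb, Rela and Nfkbie at 90.7% to 94.8%. Fitted without the replicate block, none of these was called. In that fit 0 of 12786 genes (0%) were called, 890 genes had an unadjusted p under 0.05 and 3 of them were members. With the block, 7 members were called lower, where 8.74% of genes were called lower. The median log2 fold change was -0.39 for the members and -0.01 for all genes tested. The members' median was -0.25 without oxLDL+LPS replicate 1, -0.26 without LPS replicate 3 and between -0.48 and -0.46 without any other single library. After rescaling to the same total it was -0.30, with 0.08 for all genes, and after quantile normalization -0.28, with 0.02 for all genes. The block was not run with either scaling.

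Tnfaip3 was at 18958, 18506 and 28578 with LPS and at 9607, 13875 and 15314 with oxLDL+LPS, and the groups did not overlap. Its log2 fold change was -0.77 (SE 0.24, limma adjusted p = 0.698), and with the block the SE was 0.12 and the adjusted p = 0.0106. Nfkbiz went from 6940, 6741 and 10334 to 3170, 5022 and 6226, again without overlap. The log2 fold change was -0.76, with a limma adjusted p of 0.0101 under the block. Of all genes tested, 6.39% had every oxLDL+LPS library below every LPS library. Nfkbiz was at 45.7% of its partner in number 1, 74.5% in number 2 and 60.3% in number 3, and Tnfaip3 at 50.7%, 75.0% and 53.6%.

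Rel showed the largest decrease of the subunits. It was at 1177, 1117 and 1960 with LPS and at 715, 793 and 1190 with oxLDL+LPS, so that the highest library with oxLDL exceeded the lowest without. The log2 fold change was -0.64 and the block gave an SE of 0.079 (limma adjusted p = 0.0052). Nfkb1 (8027, 14486 and 11902 with oxLDL+LPS) and Nfkb2 (10358, 19890 and 20474) overlapped the LPS libraries. Their log2 fold changes were -0.38 and -0.41 with limma adjusted p of 0.0721 and 0.0573 under the block. Without oxLDL+LPS replicate 1 they were -0.14 for Nfkb1 and -0.09 for Nfkb2, and without LPS replicate 3 they were -0.24 and -0.22. Rela (4220, 5472 and 5156 with oxLDL+LPS) and Relb (1824, 2564 and 2344) differed from LPS by -0.09 and -0.14 on the log2 scale and were not called (limma adjusted p = 0.492 and 0.278 with the block).

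Of the cytoplasmic inhibitors, Nfkbia was at 13890, 14212 and 18048 with oxLDL+LPS against 21097, 16242 and 25043 with LPS, and 1 LPS library lay within the oxLDL+LPS range. Its log2 fold change was -0.42 (limma adjusted p = 0.0508 with the block). Nfkbie was at 3681, 3925 and 4923 against 3711, 4244 and 5306, a log2 fold change of -0.08 that was not called (limma adjusted p = 0.567 with the block). Bcl3 went from 1897, 1192 and 1810 to 1393, 1032 and 1309, a log2 fold change of -0.37 (limma adjusted p = 0.0269 with the block).

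The decreases were not equal across pools. Number 2 had the smallest decrease in 8 of the 10 members, and the members' median log2 difference was -0.54, -0.19 and -0.47 in numbers 1, 2 and 3. Calls under the block depended on which pools entered. Without number 1 only Rel was called (limma adjusted p = 0.0912), where 0.481% of genes were called lower, and without number 3 no member was, when no gene of 12452 tested was called. Without number 2 the same 7 members were called, where 1846 of 12334 genes were called lower, but in that fit limma gave each gene the variance of the trend with none of its own spread, so these calls do not test the members' replicates. Mesothelial and fibroblast markers moved with the result in number 1, where they summed to 27494 with LPS and 15635 with oxLDL+LPS. In number 2 they summed to 13289 and 14548, and in number 3 to 5164 and 4428. Xist was 6331 and 3812 in number 1. The part of these differences between libraries in the decreases was not tested.

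**Figure D4:**
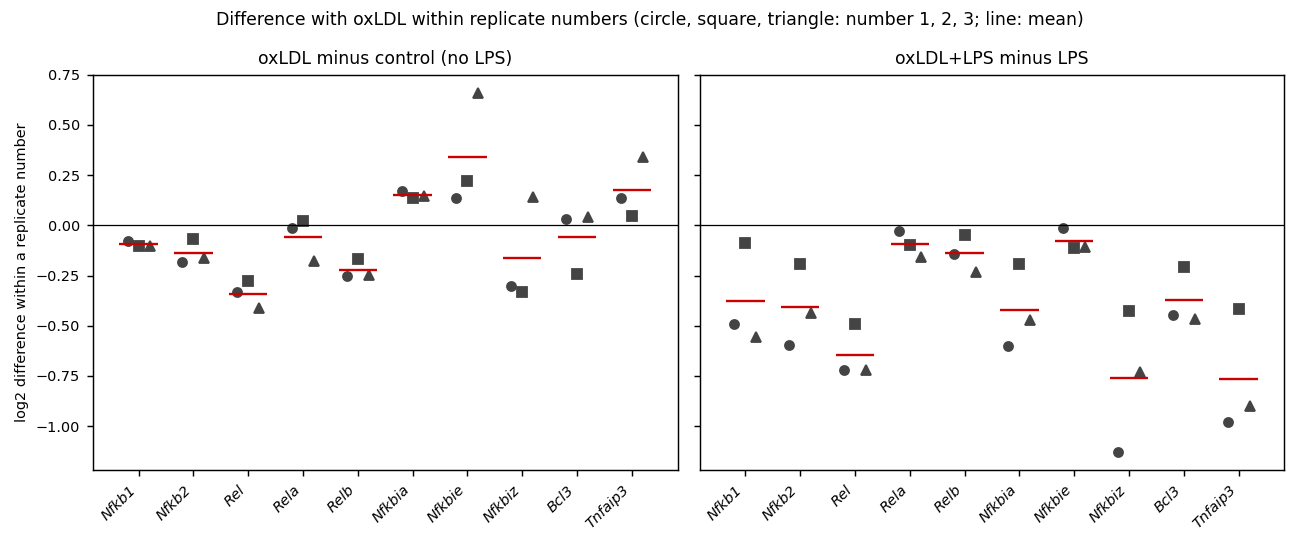
Log2 difference with oxLDL within each replicate number, without LPS (left) and with LPS (right); symbols are numbers 1 to 3 and red lines their means. With LPS all 30 differences are below 0, while without LPS Nfkbia, Nfkbie and Tnfaip3 are above 0 in all 3 numbers.

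The interaction asked whether the difference with oxLDL was itself different in the presence of LPS. Without a block, 0 of 13482 genes (0%) were called by limma, 418 genes had an unadjusted p under 0.05 and 2 of these were members, Tnfaip3 and Nfkbia. With the replicate block fitted within each LPS state, Tnfaip3 (-0.94 ± 0.14 on the log2 scale, limma adjusted p = 0.0463) and Nfkbia (-0.57 ± 0.10, limma adjusted p = 0.0554) were called negative, as were 0.682% of genes tested. Both calls were lost without number 1 or number 3, when no gene was called of 13148 and 13214 tested. Without number 2, Nfkb1, Nfkbiz and Bcl3 were called as well, where the share of all genes called negative was 3.42%. For Tnfaip3, Nfkbia and Nfkbie the difference with oxLDL was above 0 in all 3 numbers without LPS and below 0 in all 3 with LPS, an order found in 1.92% of genes. For Nfkbie the difference with LPS was only -0.0117 in number 1. Its log2 fold change there was 0.0128 after rescaling to the same total and 0.0258 after quantile normalization, so its change of sign depends on scaling. Rel was lower with oxLDL in both states, and its interaction of -0.30 was not called (limma adjusted p = 0.212 with the block). For Relb (0.08) and Rela (-0.04) the interaction was close to 0.

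Other components of the pathway were described with a list of 50 genes, all of which were tested. LPS raised 32 of them and lowered 4, where 31.4% of all genes were called higher and 30.3% lower. In oxLDL-loaded PMφs it raised 33 and lowered 4, where 28.2% were called higher and 26.3% lower. Their median log2 fold change with LPS was 0.74, below that of the 10 members. The largest rises belonged to Traf1 (log2 fold change 5.72), a signaling adaptor, Zc3h12a (3.70), which encodes the mRNA-degrading Regnase-1, Tnip3 (3.33) and Birc3 (3.00). Further inhibitors rose too, Nfkbib by 2.65 and Nfkbid by 1.39 on the log2 scale. The 4 that fell were Irak1 (-0.55), Otulin (-0.40), Irak4 (-0.39) and Tab1 (-0.38). Of the IκB kinase complex, Ikbkb rose by 0.85 and Chuk by 0.36, whereas Ikbkg at 0.25 was not called (limma adjusted p = 0.314). With the replicate number as a block its limma adjusted p was 0.0320. That block pairs libraries across LPS states, where replicate 1 was not the same pool, so this call carries no weight.

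With oxLDL alone none of the 50 was called without the block. With it, Nfkbid was called higher (0.35) and Ikbke (-0.33), Irak2 (-0.20), Traf3 (-0.20) and Tnip3 (-0.51) lower. Of all genes tested, 1.80% were called higher and 2.92% lower in that fit. In LPS-treated PMφs the block called 10 of the 50 lower with oxLDL and 2 higher. Of all genes tested, 8.74% were called lower and 4.42% higher, so the share of the 50 called higher was close to that of all genes. Tnip3, an A20-binding protein, had the largest decrease (-0.96), followed by Zc3h12a (-0.54), Traf1 (-0.52) and Ikbke (-0.45), and the other 6 lay between -0.34 and -0.23. The higher genes were Ikbkg (0.60), which encodes the scaffold NEMO, and Map3k14 (0.42), the kinase of the non-canonical pathway. Without the block none was called. In the blocked fit with number 3 left out, no gene of 12452 tested was called.

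Textbook targets of NF-κB were listed as 33 genes, of which 32 passed the filter in the LPS comparisons. Of these, 27 also passed it without LPS, and all 27 rose with LPS, with a median log2 fold change of 5.66 without oxLDL and 4.96 with it. The other 5 (Ccl22, Il12b, Il23a, Il6 and Nos2) passed only through the libraries with LPS, so that their rise followed from the filter. With oxLDL+LPS against LPS, 23 of the 32 were called lower under the block and none higher, where 8.74% of all genes were called lower. Without the block none was called. The blocked calls depended on the pools, as for the members. When number 3 was left out no gene of 12452 tested was called, and when number 1 was, 0.481% of genes were called lower. The median log2 fold change of the 32 was -0.73, beside -0.39 for the 10 members. For the 27 that also passed the filter without LPS it was -0.62, and 18 of them were called lower. For the other 5 it was -2.18, and all 5 were called lower. Il23a (-2.46), Ccl22 (-2.40), Il6 (-2.18) and Il1b (-2.16) had the largest decreases, and of these only Il1b was among the 27. Among the 9 not called, chosen as examples after their values were seen, were Tnfrsf1b (0.01), Sod2 (-0.06), Irf1 (-0.25) and Icam1 (-0.29).

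**Figure D5:**
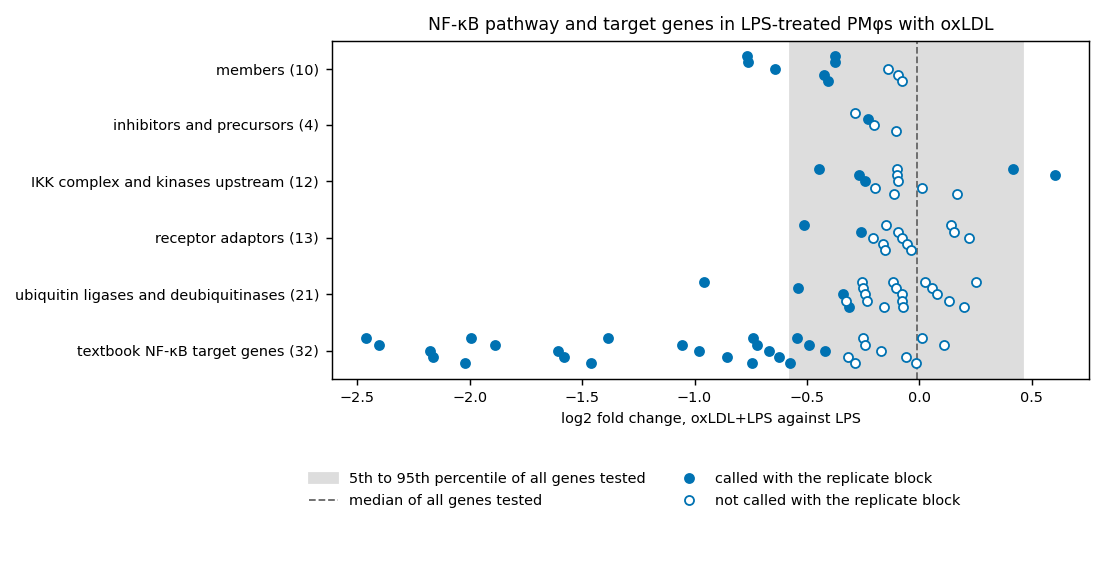
Log2 fold change with oxLDL+LPS against LPS for the members, 4 lists of other pathway genes and the target list; filled circles are called with the replicate block and the grey band holds the 5th to 95th percentile of all genes (-0.58 to 0.46). Members reach -0.77 (Tnfaip3) and target genes -2.46 (Il23a).

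Profiles over the 12 libraries were compared by the root mean square difference of centred log2 values, as a description. Among the members, Nfkb1 and Relb were most alike (0.203), followed by Nfkbia and Nfkbie (0.255). Over 13481 other genes, Nfkb1 was closest to Plek (0.131) and Ripk2 (0.140), and Tnfaip3 to Atp10a (0.158) and H2-Q5 (0.186). Rela was closest to Tmco3 (0.069) and Ppp4r2 (0.075), Rel to Notch2 (0.154) and Itga4 (0.167), and Relb to Cybb (0.107) and Pcgf5 (0.114). The nearest genes of Nfkb2 were Bcl2a1d (0.208) and Pde4b (0.209). Those of Nfkbia were Slfn8 (0.178) and Ddx58 (0.180), those of Nfkbie Cdc42ep2 (0.226) and Xkr8 (0.240), those of Nfkbiz Adora2a (0.245) and Ifih1 (0.267), and those of Bcl3 Ifnar2 (0.099) and Nfxl1 (0.106). H2-Q5, Bcl2a1d and Slfn8 belong to families of similar genes, so their reads could be shared.

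The members lie on 8 chromosomes of GRCm38. Rela (chr19:5637483-5648130, plus strand) and Nfkb2 (chr19:46304320-46312385, plus strand) share 1 chromosome, and Relb (chr7:19606217-19629438) and Bcl3 (chr7:19808462-19822770), both on the minus strand, lie close together on another. Nfkb1 (chr3:135584655-135691547), Rel (chr11:23736847-23770970), Nfkbia (chr12:55489410-55492647), Nfkbiz (chr16:55811375-55838899) and Tnfaip3 (chr10:19000910-19015657) are on the minus strand, and Nfkbie (chr17:45555703-45563169) is on the plus strand. Exons of Nfkb2 overlap Psd on the other strand, and exons of Bcl3 overlap the antisense gene Gm16175. Whether reads were counted by strand is not given in the sources used here, so reads in these overlaps could be shared. Psd itself was at 80 to 105 in control and 814 to 1426 in LPS libraries, and Gm16175 at no more than 11 in any library.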

How the data were processed

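RNA of 12 PMφ libraries, 3 in each of 4 groups named by the labels, was sequenced as paired 150-base reads. According to the study's methods and the submitters' processing notes, the authors trimmed reads with Trimmomatic 0.32, aligned them with STAR 2.5.1b to mm10 and counted them per gene with featureCounts on a GENCODE annotation. The deposited values are a signal: the authors scaled each library's gene counts by a single factor and kept whole numbers. They are not raw counts, so no count model was used. The factor was estimated from the spacing of values and gives the implied reads assigned to genes in each library. The file names genes by symbol only, and 25 symbols had been turned into dates by spreadsheet software.

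Log2(value + 1) was tested with limma 3.58.1 in R 4.3.3 (linear model, moderated variance with an intensity trend) across all genes that reached 10 in 3 or more libraries. Each comparison used its 6 libraries, and the interaction all 12. P-values were adjusted by Benjamini-Hochberg over all genes tested, and genes with an adjusted p under 0.1 were called. Fold changes are on this log2(value + 1) scale and understate those of low genes. The replicate number was not in the model unless a block is named. Numbers were taken as pairs within each LPS state because the deviations of same-numbered libraries correlated above 0.1 in every pair, and the study's methods describe dividing pooled cells into groups. Libraries are cultures of pooled animals, so p-values without a block measure the spread between these libraries. With the block they measure the spread of the differences within replicate numbers.

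The members, the lists and the tests were chosen with earlier results of these data known. All members were named, with the 2 genes of most similar profile for each, and pathway genes that were called. Ikbkg in the LPS comparison and the target genes named were chosen after their values were seen. Exon lengths and positions came from GENCODE vM21, promoters from RefSeq, both on GRCm38. The tests were checked on simulated data, in which each replicate number was 1 pool across all 4 groups. The change of pool seen in replicate 1 was therefore not simulated. Alternatives were other pseudocounts, no filter, other scalings, no variance trend, a stricter threshold, a fit of all 12 libraries, the replicate block and leaving out each library. Fits without 1 replicate number were added after seeing the data.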

Additional observations from a re-analysis of the deposited data

Results flagged for a closer look

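For 3 members the difference with oxLDL had opposite signs without and with LPS in all 3 replicate numbers. The log2 difference with LPS minus that without was -0.94 for Tnfaip3, -0.57 for Nfkbia and -0.42 for Nfkbie. With LPS, Nfkbie differed by only -0.0117 in number 1, and rescaling or quantile normalization turned its log2 fold change above 0. Tested as an interaction in limma, none was called without a block (adjusted p = 0.9999 for each). With the replicate block within each LPS state, Tnfaip3 (adjusted p = 0.0463) and Nfkbia (0.0554) were called and Nfkbie was not (0.188). With 1 block for each number across both LPS states none was called (adjusted p = 0.657 for Tnfaip3 and Nfkbia), but replicate 1 was not the same pool in both states.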

How the results depend on the processing

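All 10 members stayed called higher in both LPS comparisons under every alternative run. Rescaling to the same total changed the split of calls over all genes from 4093 higher and 3946 lower to 2172 and 7225 without oxLDL, and from 3633 and 3397 to 2031 and 6660 with it; quantile normalization gave 3243 and 4816, and 2848 and 4283. For oxLDL against control, 0 members were called, 1 with the replicate block (2.92% of all genes called lower), and 1 with that block without number 3 (6.05%). For oxLDL+LPS against LPS, 0 were called, 7 with the replicate block (8.74%), 7 with it without number 2 (1846 of 12334 genes) and 1 without number 1 (0.481%). In the blocked fits without number 3 for oxLDL and without number 2 for oxLDL+LPS, limma's prior degrees of freedom were infinite, so their calls use no spread of the gene itself and carry no weight. For the interaction, 0 were called, 2 with the replicate block within each LPS state (0.682% negative) and 5 with it without number 2 (3.42%). The block called 229 genes higher and 372 lower for oxLDL, and 565 and 1117 for oxLDL with LPS. Leaving out 1 library changed no count of members called but moved values by over 1.5 times, as given above for Nfkb1 and Nfkb2, and turned some signs. For oxLDL, Bcl3 ranged from -0.13 to 0.0558 over left-out libraries and was 0.0364 with the block without number 2, and Rela was 0.0040 with the block without number 3. For oxLDL+LPS against LPS, ranges over left-out libraries were -0.20 to 0.0621 for Nfkbie, -0.24 to 0.0165 for Rela and -0.28 to 0.0020 for Relb. Nfkbie was 0.0128 after rescaling and 0.0258 after quantile normalization, and Rela 0.0182 after the latter. For the interaction these ranges were -0.18 to 0.0736 for Rela, -0.0575 to 0.22 for Relb and -0.49 to 0.0531 for Nfkb2, and Rela was 0.0561 after rescaling, 0.0571 after quantile normalization and 0.0038 with the block without number 2. The causes were not tested. With 3 replicate numbers, calls of oxLDL differences rest on the pairing.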
